A study of Mus musculus with 4 samples.

Results

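The genes described here encode enzymes of DNA methylation and of Polycomb repression, with their closest cofactors. They were taken by symbol from the table of FPKM values (fragments per kilobase of exon, scaled between libraries): Dnmt1, Dnmt3a, Dnmt3b, Uhrf1, Tet1, Tet2, Tet3, Ezh2, Eed and Suz12. All 10 symbols were found, each on a single line, among 53465 genes in all. DNA methyltransferases place a methyl group on cytosine, mostly where guanine follows, and TET enzymes oxidise that mark, which starts its removal. Polycomb repressive complex 2 (PRC2) methylates lysine 27 of histone H3 and keeps developmental genes silent. Germ cells pass through a genome-wide loss and renewal of DNA methylation, and imprinted genes, expressed from a single parental copy, carry marks set during that renewal.

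Bulk long RNA-seq was performed in mouse female germline stem cells (FGSCs), cultured cells derived from ovary, to find transcripts that differ after knockdown of Nat10. NAT10 is the acetyltransferase that writes N4-acetylcytidine on RNA. The shNC group carried a lentiviral negative control shRNA and the shNAT10 group a lentiviral shRNA against Nat10, both with drug selection of infected cells, and each group had 2 libraries. No genetic allele or other treatment separated the groups in the labels.

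Nat10 (ENSMUSG00000027185, chr2:103721256-103761270, minus strand, mm10) was checked first. In the controls it stood at 7.79 and 5.42 FPKM, against 2.95 and 3.04 after knockdown. Both knockdown libraries were below both controls, and the mean in shNAT10 was 45.4% of that in shNC. On the log2(FPKM + 0.1) scale, used for every fold change below, Nat10 differed by -1.09 with a standard error (SE) of 0.21 (limma, unadjusted p = 0.00411, adjusted p = 0.123). The call was lost without shNAT10 replicate 1 (-1.07) or without shNAT10 replicate 2 (-1.11), where the lone library left in the group is assumed to vary like the other group. With 2 libraries against 2, an exact two-sided permutation test cannot give a p below 0.333, which is its value for Nat10.

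Whole fragments could be recovered from the FPKM values and exon lengths, and came to 14902375 and 13029007 for shNC, against 11057912 and 13771492 for shNAT10. Of these, 47.2% and 37.8% in shNC and 26.3% and 28.0% in shNAT10 fell on loci related to ribosomal RNA or to other abundant small RNA. The loci include Gm26917 and Gm42418, which the study treats as long noncoding RNAs and reports as lower after Nat10 knockdown by RT-qPCR. Outside those loci the depth was closer, at 7872971, 8106775, 8151175 and 9915019 fragments in the same order. That share thus moved with the groups, and its part in the differences below was not tested.

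The labelled cell type was checked against its markers. Of the 7 FGSC markers, Pou5f1, Dppa3 and Dazl were listed at 0 in all 4 libraries, and Ddx4, a germ cell RNA helicase, was listed at 0 in 3 of 4 libraries and at 0.0529 FPKM in shNAT10 replicate 1. Only Ifitm3 and Kit reached the minimum mean of 0.1 FPKM needed for a test. Ifitm3, a membrane protein of early germ cells that many other cells also express, had 9.29 and 22.2 FPKM with shNC against 27.1 and 33.6 with shNAT10. It was not called (1.06, limma, adjusted p = 0.326), but was with a replicate block, under the scaling to equal totals (1.14), with weighting by recovered fragments (1.07), among genes with a mean of at least 1 FPKM, and without shNC replicate 2 (1.69), while without shNC replicate 1 the value was 0.44. Prdm1, a transcription factor of early germ cells, had 6 recovered fragments in each library. In these libraries most markers that define the germline were therefore at 0 or close to the limit of detection. The study also examined Pou5f1, Ddx4, Ifitm3 and Prdm1 in its FGSCs by RT-PCR, and DDX4 and POU5F1 by immunofluorescence, which are not part of these data.

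Some genes of leukocytes and mast cells were at high levels. Cd53, a leukocyte tetraspanin, had 174 and 196 FPKM with shNC against 121 and 126 with shNAT10. Cpa3, a mast cell carboxypeptidase, had 245 and 262 FPKM with shNC against 272 and 267 with shNAT10, while of the 9 mast cell genes 4 had a mean under 0.1 FPKM, with Tpsb2 and Fcer1a listed at 0 in all 4 libraries. The cells are therefore called by their label only, and the enzyme levels below belong to the culture as a whole. In bulk RNA, fewer cells of a type and less RNA per cell cannot be told apart.

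Of the 10 enzyme genes, 9 passed the filter of a mean of at least 0.1 FPKM over the 4 libraries, and Tet1 did not. A gene was called at a fold change over 1.2 with an unadjusted limma p of at most 0.05. By this rule 1 of the 9 was higher in shNAT10 and 0 were lower, where 8.41% of all 20116 genes tested were called higher and 7.83% lower. The called gene was Uhrf1. At an adjusted p under 0.05, 0 of the 9 were called in either direction, against 0.333% of all genes higher and 0.104% lower. Both shNAT10 libraries lay above both shNC libraries for Uhrf1, Ezh2 and Eed, 3 of the 9 genes, and below them for Dnmt3a, Tet2 and Tet3, another 3. The same held for 23.9% and 24.1% of all genes tested, so these counts are close to the background. The median log2 fold change of the 9 genes was 0.04, beside 0.01 for all genes tested.

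**Figure D1:**
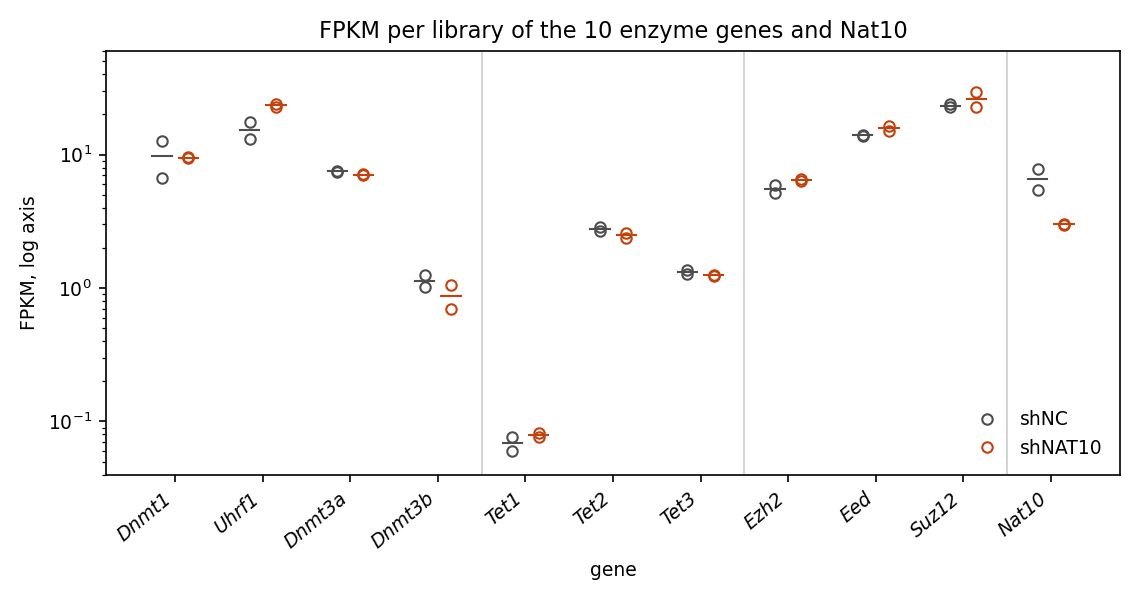
FPKM on a log axis (vertical) of the 10 enzyme genes and Nat10 (horizontal), with a circle for each library, shNC in grey and shNAT10 in orange, and a short line at the mean of each group of 2. The Uhrf1 circles of shNAT10, at 22.8 and 23.9, lie above those of shNC, at 17.5 and 13.2, and the Dnmt1 circles of shNC, at 12.7 and 6.70, lie on either side of those of shNAT10.

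Maintenance of methylation after replication rests on Dnmt1, which copies the mark to the new strand, and on Uhrf1, which binds hemimethylated sites and brings DNMT1 to them. Uhrf1 (ENSMUSG00000001228, chr17:56303321-56323486, plus strand, mm10) had 17.5 and 13.2 FPKM with shNC against 22.8 and 23.9 with shNAT10. Both knockdown libraries were above both controls, and the knockdown libraries lay closer to each other than the controls did. The log2 fold change was 0.62 with an SE of 0.16 and a 95% interval from 0.20 to 1.04 (limma, unadjusted p = 0.0131, adjusted p = 0.190). Uhrf1 thus rose by the unadjusted rule and did not pass the correction over all genes. The call was lost without shNAT10 replicate 1 (0.65) and without shNAT10 replicate 2 (0.59), and it held without either shNC library.

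Dnmt1 (ENSMUSG00000004099, chr9:20907209-20959888, minus strand) had 12.7 and 6.70 FPKM with shNC against 9.64 and 9.36 with shNAT10. The controls enclosed the knockdown libraries, and differed from each other by a factor of 1.90, the widest gap within a group among the 10 genes. The log2 fold change was 0.04 with a 95% interval from -0.79 to 0.87 (limma, unadjusted p = 0.902, adjusted p = 0.966). A single control library decided its direction: without shNC replicate 1 Dnmt1 was called higher (0.50), and without shNC replicate 2 it was called lower (-0.42). No direction can be given for Dnmt1 from these libraries. The ratio of Uhrf1 to Dnmt1, both in FPKM, was 1.37 and 1.97 in shNC and 2.37 and 2.55 in shNAT10, with no overlap between the groups. Against Pcna, a gene of DNA replication, the ratio of Uhrf1 was 1.79 and 1.09 in shNC and 1.43 and 1.59 in shNAT10. There the groups overlapped.

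De novo methylation is the work of Dnmt3a and Dnmt3b, helped in germ cells by Dnmt3l, a cofactor that has no enzyme activity of its own. Dnmt3a (ENSMUSG00000020661, chr12:3806007-3914443, plus strand) had 7.55 and 7.42 FPKM with shNC against 7.10 and 7.05 with shNAT10. The groups did not overlap, yet the gap was small: the log2 fold change was -0.08 with a 95% interval from -0.34 to 0.18 (limma, unadjusted p = 0.464, adjusted p = 0.729). Dnmt3b (ENSMUSG00000027478, chr2:153649450-153687730, plus strand) had 1.02 and 1.25 FPKM with shNC against 0.702 and 1.05 with shNAT10. Its groups overlapped, and the interval of the log2 fold change, from -1.11 to 0.40, leaves room for a change in either direction.

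The cofactor was called lower. Dnmt3l had 1.34 and 1.80 FPKM with shNC against 0.480 and 0.830 with shNAT10. Both knockdown libraries were below both controls, and Dnmt3l fell by 1.17 on the log2 scale (SE 0.33, limma, unadjusted p = 0.0198, adjusted p = 0.217). That call was lost without shNAT10 replicate 1 (-0.83), without shNC replicate 1 (-1.37) and without shNC replicate 2 (-0.97).

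Within the summed FPKM of the 3 methyltransferases, Dnmt1 made up 59.7% and 43.6% in shNC and 55.3% and 53.6% in shNAT10. Dnmt3a made up 35.5% and 48.2% in shNC and 40.7% and 40.4% in shNAT10, and Dnmt3b between 4.02% and 8.16% over the 4 libraries. The groups overlapped for all 3 shares, and the makeup of the family differed most between the control libraries.

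The TET enzymes start the removal of the mark. Tet2 (ENSMUSG00000040943, chr3:133463679-133545139, minus strand) had 2.86 and 2.69 FPKM with shNC against 2.37 and 2.60 with shNAT10. Tet3 (ENSMUSG00000034832, chr6:83362373-83459084, minus strand) had 1.37 and 1.27 FPKM with shNC against 1.24 and 1.26 with shNAT10. For both, the knockdown libraries were below the controls by less than the call rule asks, with log2 fold changes of -0.15 for Tet2 (95% interval from -0.54 to 0.24) and -0.07 for Tet3 (from -0.58 to 0.43). Tet1 (ENSMUSG00000047146, chr10:62804570-62908996, minus strand), the TET enzyme known from embryonic stem cells and primordial germ cells, had 0.0606 and 0.0763 FPKM with shNC against 0.0825 and 0.0760 with shNAT10. These levels stand for 11, 14, 16 and 18 recovered fragments, so no difference in Tet1 was detectable at this depth. Of the summed FPKM of the family, Tet2 made up 66.6% and 66.6% in shNC and 64.1% and 66.1% in shNAT10, and Tet3 nearly all the rest.

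The core of PRC2 is the methyltransferase Ezh2 with Eed, which reads the finished mark, and Suz12, which holds the complex together. Ezh2 (ENSMUSG00000029687, chr6:47530139-47595341, minus strand) had 5.18 and 5.95 FPKM with shNC against 6.51 and 6.37 with shNAT10. Eed (ENSMUSG00000030619, chr7:89954654-89980983, minus strand) had 14.0 and 13.9 FPKM with shNC against 16.3 and 15.1 with shNAT10. Both genes were above the controls in both knockdown libraries, and neither was called. The log2 fold change was 0.21 for Ezh2 (95% interval from -0.12 to 0.54, limma, unadjusted p = 0.155, adjusted p = 0.484) and 0.17 for Eed (from -0.07 to 0.42, limma, unadjusted p = 0.130, adjusted p = 0.448). Without shNC replicate 2, Ezh2 was called higher (0.31), and without shNC replicate 1 it was not (0.11).

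Suz12 (ENSMUSG00000017548, chr11:79993106-80034123, plus strand) had 23.9 and 22.6 FPKM with shNC against 29.3 and 22.8 with shNAT10. Only shNAT10 replicate 1 stood apart, and the groups overlapped. The log2 fold change was 0.15 (95% interval from -0.23 to 0.54) and became -0.03 without shNAT10 replicate 1.

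PRC2 can carry Ezh1 in place of Ezh2, a related enzyme known from cells that divide little. Ezh1 had 1.81 and 1.60 FPKM with shNC against 1.10 and 1.298 with shNAT10. It was below the controls in both knockdown libraries without a call (log2 fold change -0.47, SE 0.20, limma, unadjusted p = 0.0689, adjusted p = 0.343), and was called lower with weighting by recovered fragments (-0.50). Ezh2 made up 74.1% and 78.9% of the summed FPKM of both enzymes in shNC and 85.5% and 83.1% in shNAT10. This share does not depend on how the libraries are scaled to each other, and its groups did not overlap. The groups also did not overlap for the shares of Tet1 and Tet2 within the TET family. The difference of 7.81 percentage points in the Ezh2 share ranged from 5.44 to 10.2 when each library was left out in turn. Where groups do not overlap, leaving out a library cannot change the sign. The summed FPKM of Ezh1 and Ezh2 was 6.98 and 7.55 in shNC and 7.62 and 7.67 in shNAT10.

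The order of the levels was steady at its lower end. Ezh2, Tet2, Tet3, Dnmt3b and Tet1 held ranks 6 to 10 in all 4 libraries. Above them Suz12, Uhrf1 and Eed traded places: Suz12 was highest in 3 libraries, and Uhrf1, at 23.9 FPKM, was highest in shNAT10 replicate 2. Dnmt1 and Dnmt3a traded ranks 4 and 5 in shNC replicate 2, where Dnmt1 was low. Over all 4 libraries the levels of neighbours that trade places overlap. Within shNAT10, Uhrf1 (22.8 and 23.9 FPKM) lay above Eed (16.3 and 15.1), and Dnmt1 (9.64 and 9.36) above Dnmt3a (7.10 and 7.05).

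The other genes of the pathway were read from 6 lists, 76 genes in all, of which 75 were in the table and 73 were tested. Of these 6 were called higher and 4 lower, or 8.22% and 5.48%, beside 8.41% and 7.83% of all genes tested. At an adjusted p under 0.05 there were 0 calls in either direction. As a whole, then, the machinery was called about as often as any gene. The median log2 fold change was 0.03 for partners of DNA methylation, 0.11 for methyl-CpG readers, 0.15 for active demethylation and repair, 0.08 for other PRC2 subunits, 0.02 for PRC1 and -0.05 for removal of the Polycomb marks, and 0.04 over the 73 genes. The numbers moved with the setting and with single libraries, from 1 to 11 higher and from 1 to 3 lower when each library was left out in turn. Without limma's trend of variance with level, 1 was called higher, Bmi1.

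Among the 9 tested partners of DNA methylation, 2 were called higher and 1, Dnmt3l, lower. Mat2a, which makes the methyl donor S-adenosylmethionine, had 63.7 and 51.8 FPKM with shNC against 76.7 and 76.0 with shNAT10 (log2 fold change 0.41, SE 0.12, limma, adjusted p = 0.232). Hells, a chromatin remodeller needed for normal DNA methylation, had 8.56 and 6.34 FPKM with shNC against 10.9 and 10.2 with shNAT10 (0.51, SE 0.17, limma, adjusted p = 0.262). Both were above the controls in both knockdown libraries. Mat2a lost its call without shNAT10 replicate 1 (0.40), shNAT10 replicate 2 (0.42) or shNC replicate 2 (0.26, a fold change under 1.2). Hells lost it without shNAT10 replicate 1 (0.47), shNAT10 replicate 2 (0.56) or shNC replicate 2 (0.30).

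Of the 8 methyl-CpG readers, 0 were called in either direction with limma, while 2 were called higher under the scaling to equal totals, 2 with weighting by recovered fragments and 1 without shNC replicate 1, and 1 was called lower without shNC replicate 2. The most abundant, Mbd3, a subunit of the NuRD complex, had 23.9 and 21.9 FPKM with shNC against 24.5 and 25.4 with shNAT10. Of 14 genes of active demethylation and base excision repair, 2 were called higher and 0 lower. Cxxc5, a protein that binds unmethylated CpG, had 8.32 and 7.79 FPKM with shNC against 11.02 and 10.3 with shNAT10 (0.40, SE 0.10, limma, adjusted p = 0.194). Ogt, the O-GlcNAc transferase that binds TET2 and TET3, had 32.9 and 28.2 FPKM with shNC against 40.3 and 38.8 with shNAT10 (0.38, SE 0.11, limma, adjusted p = 0.217). Cxxc5 lost its call without shNAT10 replicate 1 (0.35), and Ogt without either shNAT10 library (0.35 and 0.40). The most abundant gene, the endonuclease Apex1, had 85.6 and 85.1 FPKM with shNC against 92.3 and 101 with shNAT10 and was not called.

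Of the other 10 PRC2 subunits tested, 0 were called higher and 1 lower. Phf1, a Polycomb-like protein that helps place PRC2 on chromatin, had 3.47 and 3.78 FPKM with shNC against 2.26 and 1.88 with shNAT10. Phf1 fell by 0.78 on the log2 scale (SE 0.16, limma, unadjusted p = 0.00633, adjusted p = 0.142), and the call was lost without shNC replicate 2 (-0.72). The most abundant subunit, the histone chaperone Rbbp4, had 28.1 and 29.0 FPKM with shNC against 25.4 and 23.6 with shNAT10 and was not called (limma, adjusted p = 0.316).

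PRC1, the complex that ubiquitinates histone H2A, had 25 genes tested, with 2 called higher. Bmi1, a ring finger subunit, had 16.9 and 17.1 FPKM with shNC against 24.6 and 22.4 with shNAT10 (0.46, SE 0.09, limma, unadjusted p = 0.00507, adjusted p = 0.131). Cbx6, a chromobox subunit, had 4.25 and 4.19 FPKM with shNC against 5.62 and 5.42 with shNAT10 (0.38, SE 0.11, limma, adjusted p = 0.230). The groups did not overlap for either gene. Bmi1 was called without each library in turn. Cbx6 lost its call without either shNAT10 library (0.35 and 0.41). Rnf2, the catalytic subunit and the most abundant gene of the list, had 29.3 and 28.6 FPKM with shNC against 30.7 and 26.2 with shNAT10, and its log2 fold change of -0.03 turned to 0.05 under the scaling to equal totals.

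The erasers of both Polycomb marks gave 0 calls higher and 1 lower among 7 genes tested. Kdm6a, an X-linked demethylase of lysine 27 of histone H3, had 8.37 and 7.78 FPKM with shNC against 6.60 and 6.25 with shNAT10 (-0.33, SE 0.11, limma, adjusted p = 0.260). Its call was lost without shNC replicate 1 (-0.27), without shNAT10 replicate 1 (-0.36), without shNAT10 replicate 2 (-0.29) and under the scaling to equal totals (-0.25), and with a replicate block (-0.33) or without limma's trend it missed the rule as well.

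**Figure D2:**
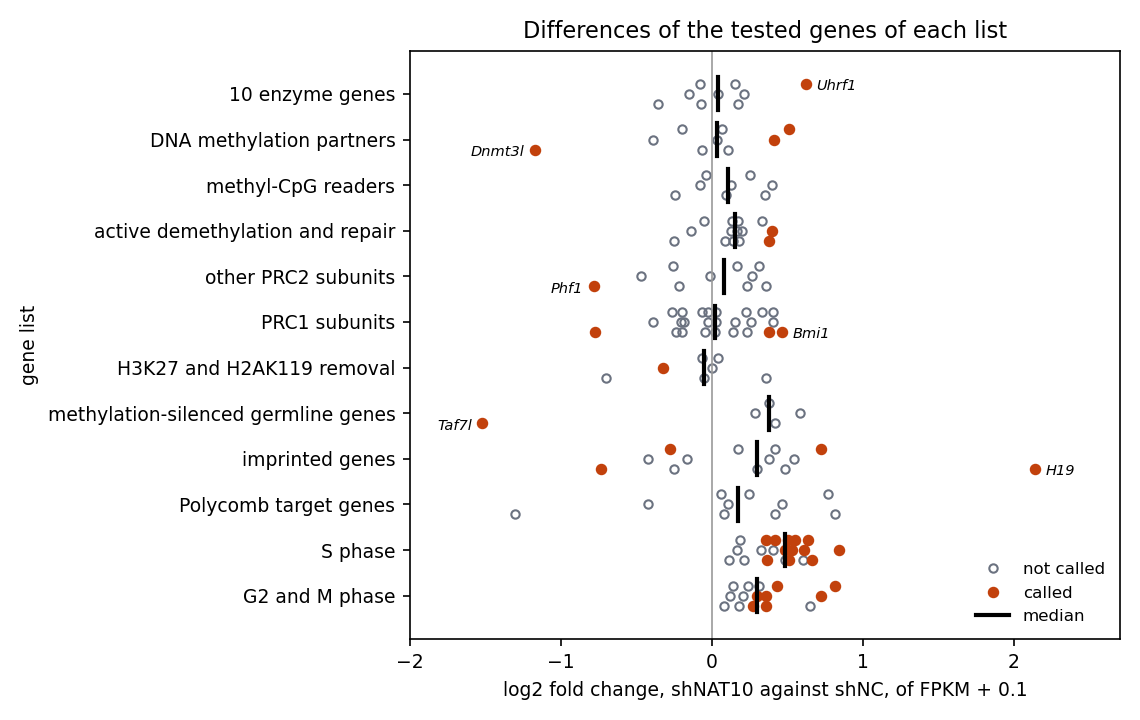
Log2 fold change of shNAT10 against shNC (horizontal, FPKM + 0.1) for the tested genes of each list (vertical), with filled orange circles for called genes, open circles for the others and a black line at each list's median. All 20 circles of the S phase list lie to the right of 0, H19 stands furthest right at 2.14, and Uhrf1 is the filled circle of the 10 enzyme genes at 0.62.

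Genes whose silence depends on these enzymes were mostly silent in both groups. Of 20 germline genes that DNA methylation keeps off in somatic cells, 15 had a mean under 0.1 FPKM and 8 of these were listed at 0 in all 4 libraries. Of the 5 tested, 0 were called higher and 1 lower, beside 8.41% and 7.83% of all genes tested. The median log2 fold change of the 5 was 0.38. Taf7l, a germ cell form of a general transcription factor subunit, had 0.834 and 1.01 FPKM with shNC against 0.248 and 0.261 with shNAT10 (-1.52, SE 0.31, limma, unadjusted p = 0.00538, adjusted p = 0.134). The most abundant, Sycp1, a protein of the synaptonemal complex, had 1.05 and 1.16 FPKM with shNC against 1.73 and 1.32 with shNAT10 and was not called.

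Of 28 classical Polycomb target genes, 18 had a mean under 0.1 FPKM. Of the 10 tested, 0 were called higher and 0 lower, beside 8.41% and 7.83% of all genes tested. The median log2 fold change of the 10 was 0.17. The most abundant, the cell cycle inhibitor locus Cdkn2a, had 6.76 and 3.67 FPKM with shNC against 9.79 and 7.46 with shNAT10. The groups did not overlap, and the log2 fold change was 0.77 with an SE of 0.33 (limma, unadjusted p = 0.0716, adjusted p = 0.350). Cdkn2a was called higher with a replicate block (0.77), with weighting by recovered fragments (0.76) and without shNC replicate 1 (1.199), while without shNC replicate 2 the value was 0.33 and without shNAT10 replicate 1 it was 0.57.

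Of 25 imprinted genes 13 were tested, with 2 called higher, 2 lower and 9 not called. The calls made up 15.4% in each direction, beside 8.41% of all genes tested called higher and 7.83% lower. H19, a maternally expressed noncoding RNA whose paternal copy is kept silent by DNA methylation, had 1.52 and 1.404 FPKM with shNC against 6.77 and 6.81 with shNAT10. The libraries of each group lay close together and far from the other group. H19 rose by 2.14 on the log2 scale with an SE of 0.13 (limma, unadjusted p = 3.29e-05, adjusted p = 0.0443), the only gene of the lists described here to pass the correction over all genes, and its value was between 2.09 and 2.20 when each library was left out in turn. Igf2, the neighbour of H19 that is expressed from the paternal copy, was listed at 0 in all 4 libraries.

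The other imprinted genes called changed less. Peg3, a paternally expressed zinc finger gene, had 0.607 and 0.689 FPKM with shNC against 1.29 and 0.989 with shNAT10 (0.72, SE 0.26, limma, adjusted p = 0.284). Zrsr1 had 3.01 and 2.75 FPKM with shNC against 1.36 and 2.09 with shNAT10 (-0.74, SE 0.25, limma, adjusted p = 0.261). Impact, the most abundant gene of the list, had 26.5 and 28.7 FPKM with shNC against 22.6 and 22.8 with shNAT10 (-0.28, SE 0.09, limma, adjusted p = 0.243). The median over the 13 genes was 0.30, with calls in both directions. Under the scaling to equal totals Zrsr1 (-0.67) and Impact (-0.21) lost their calls, and under quantile normalization Impact (-0.25) and Peg3 (0.67) did. Without limma's trend Impact and Zrsr1 were not called, nor was Peg3 with a replicate block or without the filter on low values. Peg3 lost its call whichever library was left out (0.54 to 0.90), Zrsr1 without shNAT10 replicate 1 (-0.44), shNC replicate 1 (-0.67) or shNC replicate 2 (-0.80), and Impact without shNAT10 replicate 1 (-0.27), shNAT10 replicate 2 (-0.29) or shNC replicate 2 (-0.22). Methylation of DNA or histones was not measured in these libraries.

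Many genes of DNA replication were called higher, like Uhrf1. Of 20 S phase genes, 12 were called higher, 0 lower and 8 were not called, beside 8.41% of all genes tested called higher, and 0 passed at an adjusted p under 0.05. The median log2 fold change was 0.49. Both knockdown libraries were above both controls for all 20, as for 23.9% of all genes tested. Pcna, the replication clamp, had 9.76 and 12.1 FPKM with shNC against 16.0 and 15.0 with shNAT10. Mcm3, a subunit of the replicative helicase and the most abundant of the list, had 32.1 and 29.7 FPKM with shNC against 40.4 and 42.1 with shNAT10. The summed level of the list was 250 and 234 FPKM with shNC against 328 and 339 with shNAT10, so the list stood higher in both knockdown libraries. Pcna lost its call without shNAT10 replicate 1 (0.47) or shNAT10 replicate 2 (0.55), and Mcm3 without shNAT10 replicate 2 (0.39). Mcm2 of the same helicase had 24.3 and 21.9 FPKM with shNC against 25.9 and 27.4 with shNAT10 and was not called (0.21, limma, adjusted p = 0.381), but was without shNC replicate 1 (0.28) and under the scaling to equal totals (0.28). Without limma's trend Pcna was not called, nor were Mcm5, Top2a and Cdk1 of the lists of S phase and of G2 and M phase. Mcm5 and Cdk1 also lost their calls without shNAT10 replicate 1 (0.42 and 0.39), shNAT10 replicate 2 (0.29 and 0.32) or shNC replicate 2 (0.25 and 0.22).

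Of 15 genes of G2 and M phase, 7 were called higher, 0 lower and 8 were not called. Of all genes tested, 8.41% were called higher and 7.83% lower. The median of the list was 0.30, and its summed level was 227 and 201 FPKM with shNC against 267 and 263 with shNAT10. Top2a had 22.7 and 23.4 FPKM with shNC against 28.2 and 28.3 with shNAT10. The most abundant, Ube2c, had 27.3 and 25.1 FPKM with shNC against 29.6 and 29.6 with shNAT10 and was not called (0.18, limma, adjusted p = 0.410). Mki67, a marker of dividing cells, had 13.9 and 7.73 FPKM with shNC against 17.3 and 15.4 with shNAT10. It was not called either (0.65, limma, adjusted p = 0.369), but was with a replicate block, with weighting by recovered fragments (0.66) and without shNC replicate 1 (1.07), and was at 0.23 without shNC replicate 2. Uhrf1 is itself known as a gene that dividing cells express most in S phase, and the part of cell division in its rise was not tested.

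Some markers of other cell types differed between the groups, and others on the same lists did not. For scale, 8.41% of all genes tested were called higher and 7.83% lower. Of 8 leukocyte genes, 4 were called lower (Laptm5, Lcp1, Dock2 and Cd53) and 0 higher, with Cd53 the most abundant and a summed level of 498 and 545 FPKM with shNC against 405 and 426 with shNAT10. Of 8 fibroblast or feeder cell genes, 3 were called higher (Pdgfra, Col3a1 and Thy1) and 0 lower, with a summed level of 54.3 and 47.4 FPKM with shNC against 65.2 and 55.6 with shNAT10. The most abundant of these was Dcn, and Lum was listed at 0 in all 4 libraries. The other 4 leukocyte genes were not called, with log2 fold changes of -0.01 for Ptprc, -0.04 for Coro1a, -0.03 for Vav1 and -0.13 for Spi1, and the median of the list was -0.25. The other 4 fibroblast genes tested were not called either, with 0.09 for Dcn, -0.07 for Col1a1, -0.06 for Col1a2 and -0.16 for Pdgfrb, and the median of the list was 0.09. Of these, Ptprc and Col1a2 changed sign under the scaling to equal totals (0.058 and 0.0057). The summed levels of both lists did not overlap between the groups. Without shNAT10 replicate 1 the calls of Cd53 (-0.55), Lcp1 (-0.32), Laptm5 (-0.51) and Pdgfra (0.79) were lost. Without shNAT10 replicate 2 those of Laptm5 (-0.76), Pdgfra (0.88) and Col3a1 (0.80) were lost, without shNC replicate 1 those of Laptm5 (-0.34) and Col3a1 (1.08), and without shNC replicate 2 that of Col3a1 (0.87). Laptm5 also lost its call under the scaling to equal totals (-0.57), with a replicate block, without the filter on low values and without limma's trend, and Lcp1 without the trend.

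Of 9 mast cell genes 5 were tested, with Ms4a2 called higher and Kit and Gata2 lower, beside 8.41% and 7.83% of all genes tested. Their summed level was 313 and 323 FPKM with shNC against 323 and 318 with shNAT10. Kit, which is also on the list of FGSC markers, had 24.5 and 21.2 FPKM with shNC against 14.5 and 15.6 with shNAT10. Without shNAT10 replicate 1 the calls of Kit (-0.55), Ms4a2 (1.99) and Gata2 (-0.34) were lost, and without shNAT10 replicate 2 or under the scaling to equal totals that of Gata2 (-0.33 and -0.26). Gata2 was not called without limma's trend either. The 7 FGSC markers summed to 33.9 and 43.5 FPKM with shNC against 41.7 and 49.2 with shNAT10, with Ifitm3 the most abundant. The 8 oocyte genes summed to 0.255 and 0.292 FPKM in shNC and to 0.0785 and 0.266 FPKM in shNAT10, with Gdf9 the most abundant and Zp3, Figla, Zp2 and Bmp15 listed at 0 throughout. The 6 granulosa cell genes summed to 2.88 and 2.45 FPKM in shNC and to 3.47 and 3.81 FPKM in shNAT10, with Inhba the most abundant and with Foxl2 and Fshr listed at 0 throughout. The part of these cell types in the levels of the enzyme genes was not tested.

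With the values of Uhrf1 and of the S phase list known, the promoters of the 10 genes were searched for the letters known as the E2F motif, which marks many genes of that list. The search used RefSeq promoters of GRCm38.p6, each 300 bases long from 250 before to 50 after a start, and the 4 words TTTCCCGC, TTTCGCGC, TTTGCCGC and TTTGGCGC on both strands. All 10 genes were matched by symbol, with 15 promoters, and 4 of the 10 genes (Dnmt1, Uhrf1, Ezh2 and Suz12) held a match in at least 1 promoter. The same was true of 7 of the 17 S phase genes with a promoter in the set, of 1 of 13 genes of G2 and M phase, of 2 of 63 other pathway genes, and of 2.60% of 27025 genes in all. Per promoter, 2.26% of 32851 held a match. A match describes letters and is not a measured binding site, and of the 4 genes only Uhrf1 was called. All 4 words hold a CG pair, and no comparison with promoters of like CG content was made.

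The promoters with a match are shown 5′ to 3′ on the strand of the gene, with the letters that match on either strand in capitals. They lie at chr17:56304063-56304362 (plus strand) for Uhrf1, chr9:20952574-20952873 (minus strand) for Dnmt1, chr6:47594981-47595280 (minus strand) for Ezh2 and chr11:79992856-79993155 (plus strand) for Suz12.
Uhrf1: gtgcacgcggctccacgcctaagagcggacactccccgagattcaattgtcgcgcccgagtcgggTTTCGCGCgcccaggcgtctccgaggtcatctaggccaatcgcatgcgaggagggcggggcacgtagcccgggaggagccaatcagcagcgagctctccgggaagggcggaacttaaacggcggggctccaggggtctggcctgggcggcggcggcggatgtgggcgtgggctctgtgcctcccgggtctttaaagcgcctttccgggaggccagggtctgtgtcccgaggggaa
Dnmt1: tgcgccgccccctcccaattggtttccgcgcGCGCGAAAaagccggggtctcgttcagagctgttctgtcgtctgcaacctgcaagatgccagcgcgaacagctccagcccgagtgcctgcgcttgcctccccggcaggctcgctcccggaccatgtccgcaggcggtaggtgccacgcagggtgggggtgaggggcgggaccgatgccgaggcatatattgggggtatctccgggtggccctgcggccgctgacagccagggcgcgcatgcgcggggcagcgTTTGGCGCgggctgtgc
Ezh2: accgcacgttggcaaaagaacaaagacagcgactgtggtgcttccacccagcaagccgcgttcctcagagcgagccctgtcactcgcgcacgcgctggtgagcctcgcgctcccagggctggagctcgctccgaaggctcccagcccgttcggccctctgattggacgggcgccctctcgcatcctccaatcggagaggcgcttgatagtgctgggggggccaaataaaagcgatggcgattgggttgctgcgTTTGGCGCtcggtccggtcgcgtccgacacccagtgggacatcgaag
Suz12: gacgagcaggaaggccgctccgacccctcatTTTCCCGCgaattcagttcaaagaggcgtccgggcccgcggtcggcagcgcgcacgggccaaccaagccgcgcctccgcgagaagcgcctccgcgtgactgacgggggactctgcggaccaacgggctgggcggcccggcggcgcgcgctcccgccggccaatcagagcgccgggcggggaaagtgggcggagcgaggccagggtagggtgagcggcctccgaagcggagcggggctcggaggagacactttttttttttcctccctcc
The 15 promoters of the 10 genes were rich in CG, with a median of 30 CG pairs each, beside a median of 7 over all promoters.

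Reads of some of these genes could be shared with others. Exons of Ezh2, Suz12, Eed, Dnmt3a and Tet2 overlap a gene on the opposite strand, and strand may not have been used in counting, so that reads of both genes could not be told apart there. The partner with the highest mean FPKM, Gm26563 at Suz12, had 4.07 and 3.22 FPKM with shNC against 4.10 and 2.82 with shNAT10, with 178 exon bases shared. E230029C05Rik at Eed shared the most exon bases, 261, and had 0.371 and 0.395 FPKM with shNC against 0.320 and 0.350 with shNAT10. Gm26625 at Ezh2 had 1.74 and 2.39 FPKM with shNC against 2.42 and 2.90 with shNAT10, with 174 bases shared. Uhrf1 shares stretches of identical sequence with Gm5648, which had at most 0.1004 FPKM in any library, and Dnmt3b with Dnmt3c, at most 0.0587 FPKM. Shorter stretches, of at least 50 to 100 bases, of Dnmt1, Dnmt3a, Eed, Tet1 and Uhrf1 are also found in other expressed genes, such as Git2 for Eed and Gm15953 for Uhrf1. The most abundant is Malat1, which shares at least 50 bases with Dnmt3a and had 650 and 619 FPKM with shNC against 509 and 448 with shNAT10. Tet1 shares at least 100 bases with Gm35507, which had 2.74 and 4.18 FPKM with shNC against 2.45 and 1.96 with shNAT10, and reads of both could not be told apart there.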

How the data were processed

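The deposited values are FPKM per gene in 4 long RNA-seq libraries, 2 of each group. The submitters' processing notes name cutadapt, HISAT2 and DESeq2 with the build mm10. The study calls the 2 libraries of a group biological replicates, which the labels do not state. The records differ on whether ribosomal RNA was depleted or mRNA was isolated, and do not state whether counting used strand. The median-ratio factor was the same in every library, 1.00, so levels relative to total RNA are not given. A second deposited table was read only to compare its FPKM with the first, for 13023 genes (largest relative difference 2.98e-08), and the authors' fold changes and p-values in it were not used.

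Genes whose FPKM averaged 0.1 or more were fitted as log2(FPKM + 0.1) with limma 3.58.1 (trend, two-sided) in R 4.3.3, and p-values were adjusted by Benjamini-Hochberg over all genes tested. Tables were made with Python 3.11.15. The steps were tested on simulated data. Fragments were recovered from FPKM and GENCODE M21 exon lengths, with 53360 of 53465 identifiers matched, and between 96.0% and 96.6% of values under 50 fragments were whole within 0.02. In a gene of 1 kilobase, 3 fragments make 0.255, 0.253, 0.239 and 0.196 FPKM, in the order shNC then shNAT10. Intervals cover the spread between libraries, and this floor covers counting error only. Promoters are from RefSeq, GRCm38.p6.

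The members and the lists were chosen with earlier results of these data known. Named by rule were the members, Nat10, the most abundant gene of each list, in pathway lists up to 4 called rises and 4 called falls with a mean FPKM of at least 1, and the first 3 genes of each cell type and proliferation list. Ezh1, Taf7l, Peg3, Igf2, Col3a1, Thy1, Lcp1, Dock2, Ms4a2, Gata2 and other genes outside this rule were chosen after their values were seen. Alternatives changed the pseudocount, filter, scaling, trend, replicate block and weighting by recovered fragments, and left out each library.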

Additional observations from a re-analysis of the deposited data

How the results depend on the processing

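When each library was left out in turn, 1108 to 1734 genes were called higher (1691 with all libraries) and 899 to 1659 lower (1576), 0 to 2 of the enzyme genes higher (1) and 0 to 1 lower (0), and 1 to 11 other pathway genes higher (6) and 1 to 3 lower (4). A lone library was assumed to vary like the other group. Other pathway genes called higher were 10 with equal totals outside the loci related to ribosomal RNA, 1 without the trend and 13 with weighting by recovered fragments (voom), which called 7 lower. Equal totals gave 2153 genes higher and 1132 lower. With a replicate block pairing libraries of the same number, 1587 genes were higher and 1527 lower, and the pairing correlation over 20116 genes was 0.00711.

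Omitting single libraries moved the log2 value across 0 for Dnmt1 (-0.42 to 0.50), Suz12 (-0.026 to 0.34), Rnf2 (-0.14 to 0.088), Bap1 (-0.22 to 0.081, with 0.02 between), Amh (-0.56 to 1.04), Dcn (-0.069 to 0.25), Col1a1 (-0.27 to 0.13), Col1a2 (-0.20 to 0.070) and Spi1 (-0.40 to 0.13). With equal totals it turned for Rnf2 (0.046), Bap1 (0.0033), Col1a2 (0.0057) and Ptprc (0.058), and with quantile normalization for Rnf2 (0.015), Ptprc (0.0087) and Cpa3 (-0.085). The cause was not tested. Of 848 recomputed values of single genes, 720 kept direction and side of the threshold. Of 126 values of the enzyme genes, 120 did. The 848 include 61 values under median-ratio rescaling, which could not change because the factor was the same in every library. The 126 include such values too. Depth limits Tet1, with 11 to 18 fragments per library.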
